A study of Mus musculus with 4 samples.

Results

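The genes described here encode the subunits of the mouse receptors for glutamate, GABA and glycine. They are the 52 genes, of 26301 in the count table, whose symbols match those of the AMPA (4 genes), kainate (5), delta (2), NMDA (7) and metabotropic (8) glutamate receptors, the GABA-A (19) and GABA-B (2) receptors, and the glycine receptors (5). They were taken by name, and no measured value was used to choose them. RNA was sequenced from mouse embryonic stem cells (ESCs), pluripotent cells derived from the early embryo, in 4 libraries. The 2 WT libraries came from the N6 line and the 2 REST-/- libraries from the N8 line, so each genotype is 1 line, and differences between genotypes and between lines cannot be told apart. Both lines were grown with LIF and serum, first on irradiated embryonic fibroblasts and then through passages on gelatin meant to remove those fibroblasts. The methods of the study call the libraries of a genotype biological replicates without naming their cultures, so the p-values here measure the spread between these libraries.

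AMPA, kainate and NMDA receptors are ion channels opened by glutamate and carry most fast excitation in the brain, whereas metabotropic glutamate receptors signal through G proteins. GABA-A and glycine receptors are chloride channels built of 5 subunits, and GABA-B receptors are G protein-coupled dimers of Gabbr1 and Gabbr2. REST is a transcriptional repressor that binds the RE1 motif and holds many neuronal genes silent in cells that are not neurons.

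The counts of the 4 libraries ranged from 22293966 to 30953863. Rest itself had WT counts of 7908 and 6233 and REST-/- counts of 4244 and 3890, with a log2 fold change of -0.52 (SE 0.13) and an adjusted p of 0.526 in edgeR's quasi-likelihood test. These are sums over the gene and do not show which exons were read. Both genotypes carried the ESC marker Pou5f1, at 670 and 705 CPM (counts brought to an equal library size with edgeR's TMM method) in WT and at 701 and 751 CPM in REST-/- ESCs. Of 10 such markers, 4 lay lower in both REST-/- libraries (Nanog, Klf4, Zfp42 and Fgf4, with log2 fold changes of -0.46, -0.44, -1.36 and -0.98) and 1 higher (Utf1, 0.19), against 15.4% and 16.5% of all genes tested. By edgeR 0 of them were called, against 0.0583% of all genes tested, and 4 had an unadjusted p under 0.05, all lower, against 2.86% of all genes tested. Their sums were 5083 and 4954 CPM in WT and 4252 and 4393 CPM in REST-/- ESCs. Of the other cell types the cultures could hold, 9 neural progenitor markers summed to between 63.8 and 158 CPM and 12 neuronal markers to between 201 and 243 CPM over the 4 libraries, with Neurod6 at 0 in every library. The 5 glial markers summed to 15.1 and 20.3 CPM in WT and to 8.32 and 11.5 CPM in REST-/- ESCs, and of the 4 tested, 1 lay lower and 1 higher in both REST-/- libraries, against 15.4% and 16.5% of all genes tested. The lower was Olig2, with WT counts of 158 and 172 and REST-/- counts of 1 and 0 (adjusted p 0.106 by edgeR), and the higher was Gfap, with a log2 fold change of 0.55 (SE 0.38). Without Olig2 the glial sums overlapped between the genotypes, at 9.98 and 13.9 CPM in WT and 8.28 and 11.5 CPM in REST-/- ESCs. The 8 fibroblast markers summed to 35.0 and 27.4 CPM in WT and to 105.5 and 25.3 CPM in REST-/- ESCs, with Lum at 0 in every library. Of 10 primitive endoderm markers, 7 lay higher in both REST-/- libraries than in both WT libraries, against 16.5% of all genes tested. Their sums were 284 and 488 CPM in WT and 584 and 721 CPM in REST-/- ESCs, and the part of these shifts in marker genes in the receptor values was not tested. In such bulk RNA, more cells of a kind and more RNA per cell cannot be told apart.

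The RE1 motif was searched on both strands of NCBIM37 (mm9) as CAGNACC, then 2 bases of any kind, then GGACAG, which leaves 12 informative positions of 15. A complete match stood within 20 kb of an annotated start site in 9 of the 52 receptor genes (17.3%), against 826 of 21926 genes with a position (3.77%). Within 1 kb of a start site the numbers were 4 of 52 (7.69%) against 133 of 21926 (0.607%). These shares are a description, and gene length and number of start sites were not matched. Binding of REST at these matches was not tested. The nearest match in 6 of the 9 genes is printed below 5′ to 3′ on the strand of the motif. It has 7 bases on each side and the informative positions, those used in the search, in capitals.
Grin1: tacgcttCAGcACCtcGGACAGcacccgc
Gabbr2: aggacggCAGtACCttGGACAGctccaga
Grin3a: taaggttCAGaACCgtGGACAGtgatcaa
Grik2: ctttcttCAGgACCttGGACAGcacttca
Grik4: ctgctggCAGgACCtaGGACAGttgtcta
Grm5: acttcttCAGcACCttGGACAGgtactca

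The match of Grin1 (chr2:25174538-25174552, minus strand) lay in an untranslated exon, 63 bp downstream of a start site. Upstream of Gabbr2 and outside the gene, the match was 1157 bp from the start site (chr4:47005902-47005916, plus strand). Further away were the intronic matches of Grin3a at 1509 bp (chr4:49856898-49856912, minus strand), Grik2 at 2268 bp (chr10:49505483-49505497, plus strand) and Grik4 at 6654 bp (chr9:42623387-42623401, minus strand). Grik4 held another intronic match at 10778 bp, and the match of Grm5 lay outside the gene, 14270 bp upstream (chr7:94736668-94736682, plus strand). In the promoter windows of RefSeq (GRCm38.p6), which run from 250 bases before to 50 after a start, 0 of the 43 windows of 36 receptor genes held a complete match, against 19 of all 32851 windows (0.0578%).

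Other receptor genes to which the results return carried the motif in a changed or distant form. Grik3 had a complete match in an intron, 28365 bp from its start site (chr4:125196309-125196323, plus strand). Gabrd had 11 of the 12 positions in an untranslated exon, 340 bp from a start site (chr4:154771791-154771805, plus strand), with the substitution A14G. Grin2c had 11 of 12 at 429 bp upstream (chr11:115128986-115129000, plus strand), with C13G. Positions count from 1 at the 5′ end of the motif, and the base of the motif is given first.
Grik3: tgtagttCAGaACCatGGACAGtgtcttg
Gabrd: cagcgttCAGcACCgaGGACGGcggacag
Grin2c: agcctgcCAGcACCcaGGAGAGacagggg
With 1 mismatch allowed, 30 of the 52 receptor genes (57.7%) and 39.4% of all genes had a match within 20 kb, and 11 of 52 (21.2%) and 5.35% of all genes within 1 kb.

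Most receptor genes gave few or no counts in either genotype. Gabra6, Grik1 and Grm3 had no count in any library, 14 of the 52 genes had at most 3 counts in every library, and 24 had more than 3 counts in every library. A level of 3 counts, the limit that a count of 0 allows, stood at 0.0969 and 0.112 CPM in WT and at 0.116 and 0.135 CPM in REST-/- ESCs. It covers counting error alone. The edgeR filter on low counts kept 24 receptor genes for testing and left out 28, none of which had more than 21 counts in a library. Of the 24, 4 averaged at least 10 CPM, 8 lay between 1 and 10 CPM and 12 lay below 1 CPM. Both REST-/- libraries but not both WT libraries reached the level of the filter for 6 genes (Gabra2, Gabrd, Gabbr2, Grm2, Grm6 and Grin2c). Gabrp reached it in both WT but not both REST-/- libraries. Counts over the tested genes are therefore no support for a direction.

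A few genes gave most receptor counts. Receptor genes together made up 195 and 164 CPM in WT against 238 and 235 CPM in REST-/- ESCs, here without TMM scaling. Gabbr1, Grik3 and Grik5, the 3 with the highest mean level per kilobase of exon, made up 80.4% and 76.8% of these counts in WT, against 70.6% and 76.2% in REST-/- libraries. Per kilobase of exon, Gabbr1 had 14.6 and 6.99 CPM in WT and 9.35 and 6.12 CPM in REST-/- ESCs, and Grik3 had 3.23 and 6.04 CPM in WT and 8.0 and 12.2 CPM in REST-/- ESCs. The order of these genes therefore differed among libraries, and Gabbr1 led in 3 of them, both WT libraries and REST-/- replicate 1. Grik5 followed at 3.53 and 4.88 CPM per kilobase in WT and 5.48 and 5.94 in REST-/- ESCs. Far below them, Gria3 had a mean of 0.480 CPM per kilobase, with Grin2d (0.427), Glrb (0.414) and Grin1 (0.394) close behind and within the spread of one another's libraries.

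**Figure D1:**
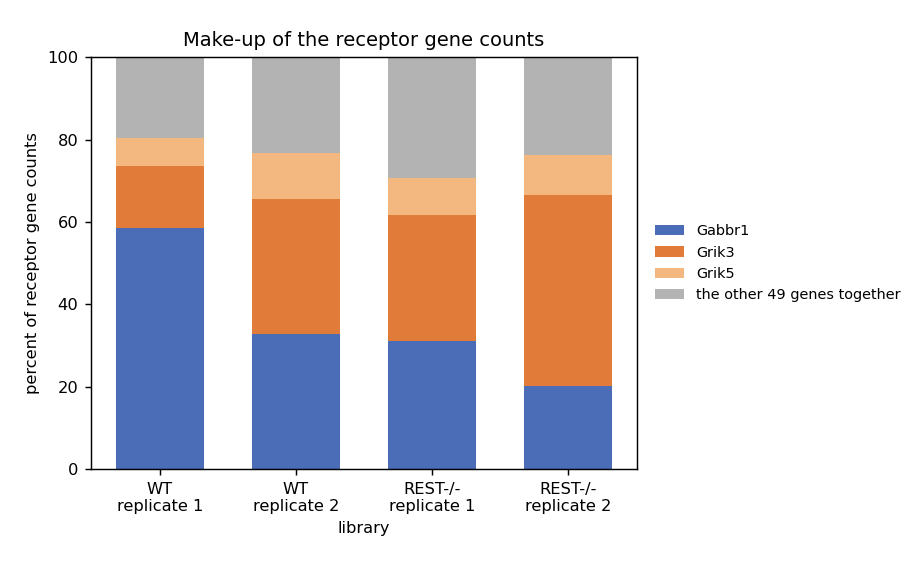
Share of all receptor gene counts, in percent, held by Gabbr1, Grik3 and Grik5 and by the other 49 receptor genes together, in each of the 4 libraries (1 bar per library, no scaling for gene length). The share of Gabbr1 runs from 58.5% in WT replicate 1 down to 20.2% in REST-/- replicate 2, and that of Grik3 from 14.9% up to 46.4% in the same libraries.

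The make-up of the receptor pool was uneven between replicates. Gabbr1 held 45.7% ± 18.2 (SD, n = 2) in WT and 25.6% ± 7.68 (SD, n = 2) in REST-/- ESCs, without overlap, and a two-sided exact permutation test gave p = 0.333, the smallest that 2 libraries against 2 allow. Grik3 held 23.8% ± 12.5 and 38.5% ± 11.2 (SD, n = 2 each), and Grik5 held 9.11% ± 3.05 and 9.29% ± 0.481 (SD, n = 2 each). The shares of Grik3 and of Grik5 overlapped between genotypes. A share falls when another gene rises, so these values are not independent of one another.

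At an adjusted p under 0.05, edgeR's quasi-likelihood test called 0 of the 24 tested receptor genes in either direction. Over all 15444 genes tested, 8 (0.0518%) were called higher and 1 (0.00648%) lower in REST-/- ESCs, 9 (0.0583%) in all. At an unadjusted p under 0.05, 6 of the 24 tested receptor genes were higher (among them Gabrd, Grin2c, Gabbr2, Gria4 and Grik3), against 3.85% of all genes, and 0 were lower, against 2.86%. Other tests of the same counts called receptor genes higher: DESeq2 called 2, among them Gabrd, against 1.17% of all genes tested. The exact test of edgeR called Gabrd and Grin2c under both dispersions, against 1.16% (tag-wise) and 1.59% (common) of all genes tested. Both REST-/- libraries lay above both WT libraries for 9 of the 24 tested receptor genes, against 16.5% of all genes tested, and below them for 2, against 15.4%. With a log2 fold change of at least 1 and at least 1 CPM in the higher genotype as further conditions, 6 receptor genes were higher (among them Gria4, Grik3, Grin2c, Grm2 and Gabrd), against 2.59% of all genes, and 1 was lower (Gabrp), against 1.44%. The log2 fold changes of the 24 ranged from -1.36 to 4.32 with a median of 0.48, and 17 were positive (70.8%). Over all genes tested the median was -0.0047, with 49.2% positive. This receptor median rested on REST-/- replicate 1, and was 0.098 without that library.

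**Figure D2:**
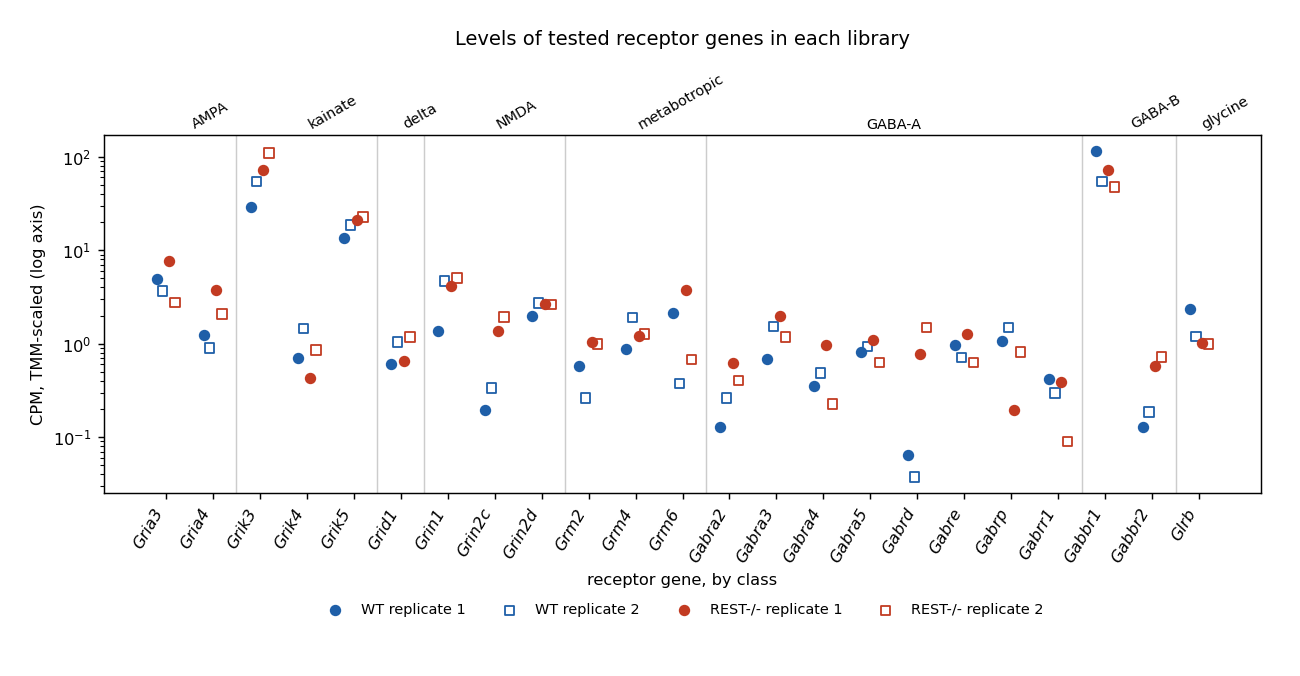
Level of 23 of the 24 tested receptor genes in each library, in TMM-scaled CPM on a log axis, grouped by receptor class (blue for WT, red for REST-/-; filled circles for replicate 1, open squares for replicate 2). Gabbr1, Grik3 and Grik5 lie above 10 CPM in every library, and the genotypes lie apart for genes including Gria4, Gabrd, Gabbr2 and Grin2c.

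The AMPA receptor subunits Gria1 to Gria4, which form the fast excitatory channels, were represented by Gria3 and Gria4. Gria3 (chrX:38754031-39031778, plus strand) had WT counts of 152 and 98 and REST-/- counts of 197 and 61, so the highest and the lowest library were both REST-/-. Its levels were 4.28 ± 0.885 CPM in WT and 5.19 ± 3.44 CPM in REST-/- ESCs (SD, n = 2 each), with a log2 fold change of 0.28 (SE 0.56) and an adjusted p of 1.00 in edgeR's test. Gria4 (chr9:4417899-4796234, minus strand) had WT counts of 38 and 24 and REST-/- counts of 97 and 46, and the genotypes did not overlap. Its levels were 1.06 ± 0.234 CPM in WT and 2.92 ± 1.19 CPM in REST-/- ESCs (SD, n = 2 each), with a log2 fold change of 1.45 (SE 0.46), an adjusted p of 0.669 by edgeR. Gria1 and Gria2, of which the second makes AMPA channels impermeable to calcium after editing of its RNA, stayed at or under 3 counts. Gria2 had 0 counts in both WT libraries, with REST-/- counts of 1 and 2.

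The kainate receptor subunits gave the most abundant glutamate receptor transcripts. Grik3 (chr4:125167944-125391417, plus strand), one of the subunits that can form a channel alone, had WT counts of 899 and 1452 and REST-/- counts of 1856 and 2431. Both REST-/- libraries lay above both WT libraries, at 90.8 ± 26.8 against 41.6 ± 17.8 CPM (SD, n = 2 each). Its log2 fold change was 1.13 (SE 0.39), with an adjusted p of 0.719 in edgeR's quasi-likelihood test. The levels also differed within each genotype, from 29.04 to 54.2 CPM in WT and from 71.8 to 109.7 CPM in REST-/- ESCs. Grik5, a subunit that needs a partner to form a channel, had WT counts of 419 and 501 and REST-/- counts of 543 and 505. Its genotypes did not overlap in CPM, at 16.1 ± 3.66 in WT and 21.9 ± 1.26 in REST-/- ESCs (SD, n = 2 each), and the log2 fold change was 0.44 (SE 0.24, adjusted p 0.962 by edgeR). Grik4, the other subunit of that kind and 1 of the genes with an RE1 match, had WT counts of 22 and 39 and REST-/- counts of 11 and 19, with a log2 fold change of -0.76 (SE 0.61) and overlapping genotypes. Grik2 stayed at 6, 2, 5 and 3 counts in WT replicates 1 and 2 and REST-/- replicates 1 and 2, in that order.

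Of the delta receptor genes, which encode relatives of the ionotropic glutamate receptors, Grid1 (chr14:35633011-36396565, plus strand) had WT counts of 19 and 28 and REST-/- counts of 17 and 26. Its log2 fold change was 0.14 (SE 0.53, adjusted p 1.00 by edgeR's test), at 0.830 ± 0.305 and 0.916 ± 0.365 CPM (SD, n = 2 each).

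NMDA receptors need Grin1, the subunit that binds glycine, together with a Grin2 subunit that binds glutamate. Grin1 (chr2:25146701-25174707, minus strand) had WT counts of 42 and 126 and REST-/- counts of 108 and 112. WT replicate 1 was the low library and the other three were alike, at 1.36 CPM against 4.70, 4.18 and 5.06 CPM. The log2 fold change was 0.61 (SE 0.64, adjusted p 1.00 by edgeR) over levels of 3.03 ± 2.37 and 4.62 ± 0.620 CPM (SD, n = 2 each), and it was -0.033 without WT replicate 1. Of the exon bases of Grin1, 13.5% are shared with another annotated gene, E130003G02Rik, and no strand setting is stated for the counting.

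Grin2c (chr11:115110483-115128557, minus strand), the Grin2 subunit best known from cerebellar granule cells, had WT counts of 6 and 9 and REST-/- counts of 35 and 43. Both REST-/- libraries were several times above both WT libraries, at 1.65 ± 0.415 against 0.265 ± 0.101 CPM (SD, n = 2 each). The log2 fold change was 2.63 (SE 0.51), with an adjusted p of 0.367 by edgeR's quasi-likelihood test. The 4 fits that each left out 1 library gave 2.27 to 3.06. Grin2d, the most abundant Grin2 gene, had WT counts of 62 and 73 and REST-/- counts of 69 and 58, with a log2 fold change of 0.16 (SE 0.34). Grin2a and Grin2b, the main Grin2 subunits of the forebrain, had 5, 9, 6 and 4 counts and 5, 0, 8 and 3 counts, and their genotypes overlapped. Grin3a, with an RE1 match, had WT counts of 4 and 1 and REST-/- counts of 8 and 1. Grin3b had 19, 5, 6 and 3 counts in the same order, and 32.1% of its exon bases are shared with another annotated gene.

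The metabotropic glutamate receptor genes were all low, and 3 of the 8 were tested. Grm6 (chr11:50664187-50679710, plus strand), the receptor of retinal ON bipolar cells, had the highest mean of them and differed more between replicates than between genotypes. It had WT counts of 66 and 10 and REST-/- counts of 98 and 15, which is 1.25 ± 1.24 and 2.24 ± 2.20 CPM (SD, n = 2 each). Its log2 fold change was 0.83 (SE 1.13, adjusted p 1.00 by edgeR), and 11% of its exon bases are shared with another annotated gene. Grm2 (chr9:106546868-106558440, minus strand), an inhibitory receptor of axon terminals, had WT counts of 18 and 7 and REST-/- counts of 27 and 22. The genotypes did not overlap, at 0.421 ± 0.226 and 1.019 ± 0.0366 CPM (SD, n = 2 each), with a log2 fold change of 1.25 (SE 0.53) and an adjusted p of 0.818 by edgeR. Grm4 had 27, 51, 31 and 28 counts and a log2 fold change of -0.17 (SE 0.51). Grm5 and Grm7 stayed at or under 3 counts, and Grm8 had 5, 3, 9 and 3 counts.

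GABA-A subunits make up the largest class, and 9 of the 19 genes were tested. Gabrd (chr4:154759089-154772221, minus strand), the delta subunit of receptors outside synapses, had WT counts of 2 and 1 and REST-/- counts of 20 and 33. WT was at the limit set by counting, so the size of the difference is given by the ratio of the summed counts, 21.3 with a 95% exact counting interval of 6.89 to 106. Such an interval covers counting error alone and not the spread between libraries. The levels were 0.0510 ± 0.0193 CPM in WT and 1.13 ± 0.506 CPM in REST-/- ESCs (SD, n = 2 each). The fitted log2 fold change of 4.32 (SE 0.71) depends on the prior count, and its adjusted p was 0.244 by edgeR's test. Gabrp (chr11:33450781-33478959, minus strand), the pi subunit best known from tissues outside the brain, lay the other way, with WT counts of 33 and 40 and REST-/- counts of 5 and 18. Its levels were 1.28 ± 0.302 and 0.503 ± 0.438 CPM (SD, n = 2 each), with a log2 fold change of -1.36 (SE 0.74) and an adjusted p of 0.949 by edgeR. The log2 fold change was -0.65 without REST-/- replicate 1 and -2.70 without REST-/- replicate 2.

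Other GABA-A subunit genes stayed low. Gabra5, known from the hippocampus, had WT counts of 25 and 25 and REST-/- counts of 28 and 14, with a log2 fold change of -0.013 (SE 0.46). Gabrg3 had WT counts of 7 and 7 and REST-/- counts of 16 and 8, a ratio of 2.06 over the summed counts (95% exact counting interval 1.025 to 4.31). Gabrb2 had 0 counts in both WT libraries, with REST-/- counts of 3 and 2.

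On chromosome 5 (71142286 to 72529628) the 4 genes Gabrg1, Gabra2, Gabra4 and Gabrb1 summed to WT counts of 17 and 21 and REST-/- counts of 45 and 14. Gabra2 had WT counts of 4 and 7 and REST-/- counts of 16 and 9 without overlap, with a log2 fold change of 1.40 (SE 0.61) and an adjusted p of 0.818 by edgeR. Gabra4, a common partner of the delta subunit, had 11, 13, 25 and 5 counts, with a log2 fold change of 0.53 (SE 0.79) and overlapping genotypes. The X-linked cluster (69501338 to 70087941) held Gabra3 at 21, 41, 51 and 26 counts, Gabre at 30, 19, 33 and 14, and Gabrq at no more than 4. Log2 fold changes there were 0.52 for Gabra3 (SE 0.57) and 0.19 for Gabre (SE 0.52), while the median of all 541 X-linked genes tested was -0.40. The part of the X chromosome's shift in these values was not tested. The rho genes Gabrr1 and Gabrr2 on chromosome 4, known from the retina, summed to WT counts of 14 and 11 and REST-/- counts of 10 and 3. Nearly all of these were of Gabrr1, whose log2 fold change was -0.55 (SE 0.78). Gabrr3, on chromosome 16, had 1 count in each of 2 libraries.

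The GABA-B subunits differed from each other. Gabbr1 (chr17:37182911-37212012, plus strand), the subunit that binds GABA, had WT counts of 3525 and 1459 and REST-/- counts of 1882 and 1057, the highest counts of any receptor gene in every library but REST-/- replicate 2. Its levels were 84.2 ± 42.0 CPM in WT and 60.3 ± 17.8 CPM in REST-/- ESCs (SD, n = 2 each), and the genotypes overlapped. The log2 fold change was -0.48 (SE 0.42, adjusted p 1.00 by edgeR's test), and 0.14 without WT replicate 1. Gabbr2 (chr4:46675190-47004745, minus strand), which carries the dimer to the cell surface and couples it to G proteins, had WT counts of 4 and 5 and REST-/- counts of 15 and 16. The REST-/- libraries lay above the WT libraries, at 0.651 ± 0.100 against 0.158 ± 0.0406 CPM (SD, n = 2 each). The log2 fold change was 2.02 (SE 0.52), with an adjusted p of 0.534 by edgeR's quasi-likelihood test. Even so, Gabbr1 remained far above Gabbr2 in REST-/- ESCs, at 7.74 against 0.111 CPM per kilobase on average.

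Of the glycine receptor genes, Glrb (chr3:80647521-80717582, minus strand), the beta subunit that anchors the receptor to gephyrin, was the one tested. It had WT counts of 72 and 32 and REST-/- counts of 26 and 22, which is 1.76 ± 0.7997 and 1.00 ± 0.00928 CPM (SD, n = 2 each). The log2 fold change was -0.82 (SE 0.47, adjusted p 0.983 by edgeR), and WT replicate 2 lay close to the REST-/- libraries. Without WT replicate 1 the log2 fold change was -0.26, and without WT replicate 2 it was -1.21. The alpha subunits, which form the channel with it, were at the edge of detection. Glra2, the alpha subunit of the embryonic brain, had WT counts of 1 and 4 and REST-/- counts of 21 and 7, a ratio of 6.74 over the summed counts (95% exact counting interval 2.57 to 22.3). Glra1, the adult spinal subunit, had WT counts of 1 and 0 and REST-/- counts of 4 and 5, a ratio of 10.8 (1.501 to 475). Glra4 had 11, 1, 7 and 3 counts, and Glra3 no more than 2. Over all 52 genes, including the 28 not tested, both REST-/- libraries lay above both WT libraries in 15 and below them in 3, against 12.6% and 11.3% of the 26301 genes of the table.

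**Figure D3:**
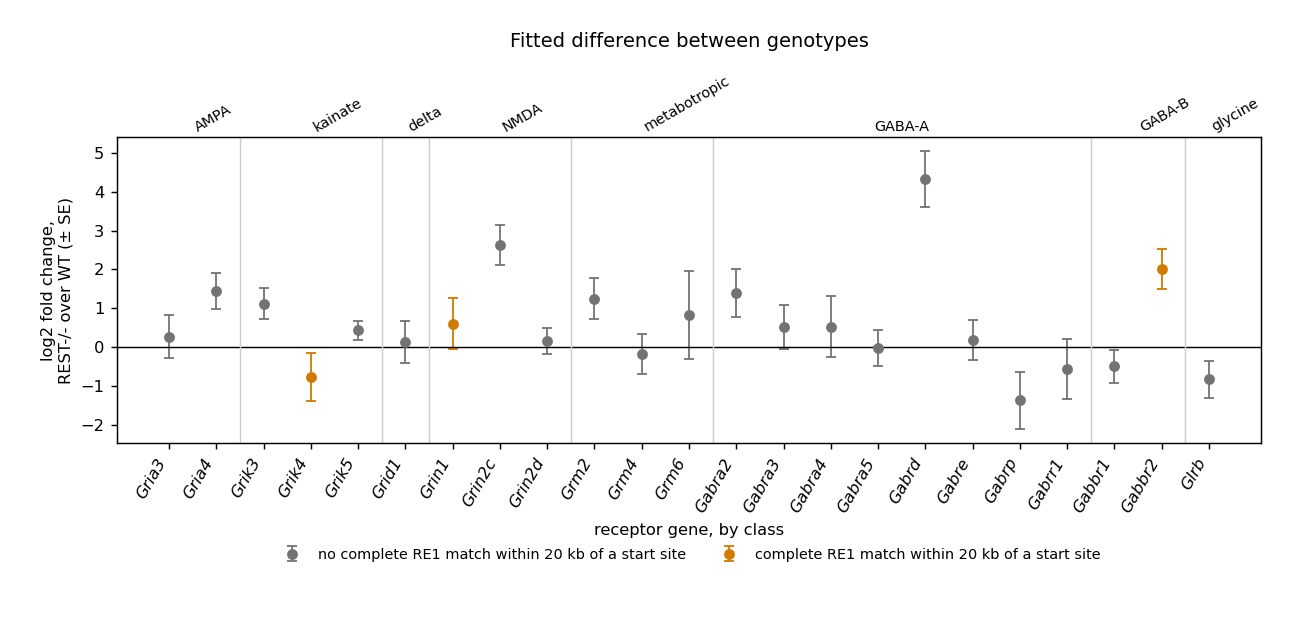
Log2 fold change of REST-/- over WT for 23 of the 24 tested receptor genes by receptor class, with the standard error of edgeR's fit as bars; orange marks Grik4, Grin1 and Gabbr2, with a complete RE1 match within 20 kb of a start site. The fitted values run from -1.36 for Gabrp to 4.32 for Gabrd, whose WT libraries had 2 and 1 counts.

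Receptor genes with a complete RE1 match within 20 kb gave no common direction. Log2 fold changes were -0.76 for Grik4, 0.61 for Grin1 and 2.02 for Gabbr2. Grin3a, Grik2 and Grm5, which were not tested, did not exceed 8 counts in any library. Among tested genes the motif stood near 4 of 24 receptor genes (16.7%) and near 629 of 14192 genes (4.43%).

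Proteins that carry, anchor or tune these receptors were read from the same fit for comparison. Of 57 such genes written as a list, 56 were in the table and 44 were tested. By edgeR's quasi-likelihood test 0 were called, 3 had an unadjusted p under 0.05 (all higher, against 3.85% of all genes tested), and 0 were lower at that level. DESeq2 and edgeR's exact test with either dispersion called 2 each, all higher, against 1.17% (DESeq2), 1.16% (tag-wise) and 1.59% (common) of all genes tested. Both REST-/- libraries lay above both WT libraries in 7 and below them in 5 of the 44, against 16.5% and 15.4% of all genes tested, and the median log2 fold change was 0.093. Lhfpl4, which anchors GABA-A receptors at inhibitory synapses, had WT counts of 44 and 122 and REST-/- counts of 289 and 477, with a log2 fold change of 2.46 (SE 0.69, adjusted p 0.611 by edgeR). Shisa6, an auxiliary protein of AMPA receptors, had WT counts of 65 and 121 and REST-/- counts of 292 and 265, with a log2 fold change of 1.82 (SE 0.44, adjusted p 0.520 by edgeR). The REST-/- libraries lay above the WT libraries for both genes.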

How the data were processed

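The authors mapped the reads with Subread, counted them per gene with featureCounts and deposited whole-number counts for 4 libraries without normalization. The submitters' processing notes name mm9. Versions, annotation and strand setting are not given in the sources used here. Of the table, 368 rows without a gene identifier or value were left out.

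The 2 WT and 2 REST-/- libraries were compared with edgeR 4.0.16 in R 4.3.3 (TMM scaling, filterByExpr, quasi-likelihood test without block, prior count 0.125, Benjamini-Hochberg adjustment over 15444 genes, threshold 0.05), and with DESeq2 1.42.0 as an alternative. On simulated counts of 15274 genes the test recovered 100% of 200 genes changed by 2 on the log2 scale, with 3.38% false among 207 calls. Every simulated gene had the same small spread between libraries, and only genes with over 200 expected counts in the 4 libraries together were changed. The simulation therefore does not show how often changes would be found at the low counts of most receptor genes or at the spread between the real libraries. Library totals were similar, so the limit set by 3 counts differed little. Exact intervals for ratios of summed counts are conditional binomial intervals at 95%. Positions, exon lengths and start sites came from GENCODE M1 on NCBIM37, and promoter windows from RefSeq. Of the list of receptor-associated genes, Shisa8 was not matched.

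Full statistics are given for receptor genes past the threshold, for those with non-overlapping libraries, at least 1 CPM in the genotype with more and a log2 fold change of at least 1 in size, and for the most abundant tested gene of each class; others are given more briefly, and some receptor genes are not reported singly here. The genes, lists and tests were chosen with earlier results of these data known. Alternatives were library-size and RLE scaling, a stricter and an absent filter, the exact tests of edgeR, a prior count of 2, the replicate number as a block and leaving out each library.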

Additional observations from a re-analysis of the deposited data

How the results depend on the processing

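The count of receptor genes called higher, 0 in edgeR's quasi-likelihood test, was 2 with DESeq2 (among them Gabrd) and 2 with edgeR's exact test under tag-wise and under common dispersion (Gabrd and Grin2c both times). It was 0 under RLE or library-size scaling, either other filter, a prior count of 2 and each fit without 1 library. With the same settings, receptor-associated genes called higher were 2 with DESeq2, 2 with each exact test, and 0 to 2 in the fits without 1 library, the 2 being those without WT replicate 2. In the fit with the replicate block, 7 receptor genes were called higher (among them Gabrd, Grin2c, Gabbr2, Grik3, Grik5 and Gria4) and 1 lower (Gabbr1), with 6 receptor-associated genes higher and 1 lower. That block moved the calls over all genes from 8 higher and 1 lower to 1308 and 1313. Same-numbered libraries deviated together (correlation 0.766), but with 2 pairs and no stated link this does not show that the numbers pair the samples. Over all genes, DESeq2 called 180 higher and 58 lower, the exact test 179 and 54 (tag-wise) or 246 and 97 (common), no filter 49 and 4, at least 10 counts in every library 3 and 0, and the fits without 1 library 54 to 88 higher and 6 to 25 lower. The median log2 fold change of the receptor genes, 0.48, was 0.23 with at least 10 counts in every library and 0.098 to 0.78 in the fits without 1 library, the lowest without REST-/- replicate 1 and the highest without REST-/- replicate 2. Gabra5 changed sign under library-size scaling (0.0042). Of the 24 tested receptor genes, 13 kept their direction in the fits without 1 library and 11 did not, with ranges of -0.89 to 2.57 for Grm6, -0.33 to 0.57 for Grid1, -0.63 to 0.50 for Grm4, -0.92 to 0.14 for Gabbr1, -0.033 to 1.76 for Grin1, -1.94 to 0.096 for Gabrr1, -0.87 to 1.19 for Gabra4, -0.049 to 0.40 for Grin2d, -0.45 to 0.31 for Gabra5, -0.63 to 0.83 for Gria3 and -0.41 to 0.60 for Gabre. Among those that kept their direction, values moved by over 1.5 times for Gabrp (-2.70 to -0.65), Glrb (-1.21 to -0.26), Grik4 (-1.34 to -0.16), Gabra3 (0.037 to 1.21), Grik5 (0.22 to 0.70), Grik3 (0.74 to 1.65), Grm2 (0.81 to 1.94) and Gria4 (0.97 to 1.81). The cause of these changes was not tested. Of the 208 single-gene fits under the other settings, 193 kept direction and side of the threshold, and 14, in 8 genes, newly passed it. With 2 libraries a genotype, and with most receptor genes at a few counts, a difference that was not called is not shown to be absent.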
